A study of Rattus norvegicus with 16 samples.

Results

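The genes of the mitochondrial ribosomal proteins were taken from the array by their names, as every gene whose symbol begins with Mrpl or Mrps and goes on with a number. There were 71 such genes, and 70 of them, 42 Mrpl genes and 28 Mrps genes, were measured well above background among 18275 gene names kept. Mrps28 was not well above background on all arrays of any group and is given no value. For 11 of the 70 genes the array carried 2 probes, and the probe with the higher mean tissue signal stands for the gene. Mrps36 is among the 70 by its name on the array, while RefSeq now names it Kgd4, a component tied to the alpha-ketoglutarate dehydrogenase complex. All 70 genes were well above background on all 16 arrays in both dyes, and none was saturated.

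The arrays were made from suckling Wistar rats (Wistar Han in the methods) that received either saline solution (C) or obestatin (OH), a peptide cut from the precursor of ghrelin, at 250 nmol/kg BW. Pups were dosed enterally 2 times a day, beginning on day 14, and tissues were collected on day 21. Stomach and middle intestine of C and of OH rats make up 4 groups of 4 arrays, each array with the tissue of 1 rat in Cy5 and a pool of RNA from all rats, the common reference, in Cy3. The methods give 4 rats per treatment for both tissues, but the labels do not say which stomach and intestine arrays share a rat. Values are log2 ratios, processed Cy5 over processed Cy3, so that 0 is the level of the pool, and a ratio compares arrays and not genes. Differences were tested in limma over all 21174 probes kept, and a gene is called when its Benjamini-Hochberg adjusted p is under 0.05.

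The mitochondrial ribosome makes the few proteins that mitochondrial DNA encodes, which are core subunits of the respiratory chain and of ATP synthase. Its RNAs are transcribed in the mitochondrion, while all of its proteins are encoded in the nucleus, made in the cytosol and imported, so that many nuclear genes have to be expressed for 1 particle. Part of these proteins have bacterial counterparts, and others, such as Mrpl45, Mrpl51, Mrps27 and Mrps31, are found in mitochondria and not in bacteria. The epithelium of the gut renews itself throughout life, and the acid-secreting parietal cells of the stomach are very rich in mitochondria.

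Promoters of nuclear genes for mitochondrial proteins are known for binding sites of NRF-1, of ETS factors such as GABP and of YY1. Of the 70 genes, 66 were matched to RefSeq by accession and 4 by symbol, and 56 had a promoter window in the RefSeq table of the GRCr8 build, from 250 bases before to 50 bases after the start of the gene. The letters CCGGAA, the core of an ETS site, were found on either strand in 29 of the 56 windows (51.8%), against 15.8% of all 27457 windows. The letters GCGCANGCG, taken for NRF-1, were found in 11 (19.6%), against 6.26%. The letters AAGATGGCG, taken for YY1, were found in 9 (16.1%), against 1.93%, and GGGCGG, taken for SP1, in 29 (51.8%), against 34.9%. The windows of the members were also richer in G and C, with a median of 55.9% against 52.3% for all. Among the 9 YY1 matches the first base lay between 17 bases before and 30 bases after the start. A match shows that the letters are present and not that a factor binds.

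Promoter windows are shown for 5 genes that come back in the comparisons of tissues or of OH with C. All 5 windows hold a match to the ETS or NRF-1 letters. They are written 5′ to 3′ on the strand of the gene, with matches to the ETS and NRF-1 letters in capitals.
Mrps31, chr16:76324016-76324315, minus strand: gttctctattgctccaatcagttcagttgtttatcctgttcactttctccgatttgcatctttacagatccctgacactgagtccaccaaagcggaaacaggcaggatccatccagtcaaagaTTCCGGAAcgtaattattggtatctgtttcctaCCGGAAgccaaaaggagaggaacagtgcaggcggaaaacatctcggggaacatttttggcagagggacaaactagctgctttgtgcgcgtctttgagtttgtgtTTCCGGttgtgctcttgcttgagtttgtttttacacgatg
Mrpl17, chr1:169575650-169575949, minus strand: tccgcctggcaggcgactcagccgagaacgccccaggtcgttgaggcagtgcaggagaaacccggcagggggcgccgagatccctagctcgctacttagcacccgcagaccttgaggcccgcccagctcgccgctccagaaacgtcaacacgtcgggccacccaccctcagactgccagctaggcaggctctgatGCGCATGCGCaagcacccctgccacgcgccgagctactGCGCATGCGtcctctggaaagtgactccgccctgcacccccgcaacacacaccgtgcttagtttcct
Mrpl44, chr9:88554800-88555099, plus strand: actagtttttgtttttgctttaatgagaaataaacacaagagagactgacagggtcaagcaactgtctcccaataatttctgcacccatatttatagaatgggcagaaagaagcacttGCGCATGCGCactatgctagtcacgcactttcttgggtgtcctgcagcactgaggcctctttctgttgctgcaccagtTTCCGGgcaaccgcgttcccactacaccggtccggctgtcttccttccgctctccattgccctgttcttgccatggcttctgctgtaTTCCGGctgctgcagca
Mrps30, chr2:52195855-52196154, minus strand: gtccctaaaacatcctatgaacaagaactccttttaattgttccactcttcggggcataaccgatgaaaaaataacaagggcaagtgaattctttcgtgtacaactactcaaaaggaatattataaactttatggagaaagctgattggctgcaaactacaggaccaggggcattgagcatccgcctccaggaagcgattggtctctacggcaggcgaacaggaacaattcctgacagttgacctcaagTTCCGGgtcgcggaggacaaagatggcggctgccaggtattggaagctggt
Mrpl36, chr1:31795072-31795371, minus strand: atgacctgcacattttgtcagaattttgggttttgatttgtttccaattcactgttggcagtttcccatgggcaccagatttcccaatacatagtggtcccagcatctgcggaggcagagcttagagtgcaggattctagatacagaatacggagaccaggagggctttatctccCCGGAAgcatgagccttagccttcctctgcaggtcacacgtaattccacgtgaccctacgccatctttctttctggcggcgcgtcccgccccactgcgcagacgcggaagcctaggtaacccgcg
The window of Mrps31 held 4 ETS matches, of which 2 overlap on opposite strands, and that of Mrpl17 held 3 NRF-1 matches, of which 2 cover nearly the same bases. The window of Mrpl44 held both kinds. That of Mrps30 held 1 ETS match at the start itself, and that of Mrpl36 held 1 ETS match 75 bases before it. The window of Mrpl51, the gene that differed most between the tissues, held none of the 4 motifs. That of Mrps7, of lowest p for OH against C in middle intestine, held no ETS or NRF-1 match. In C, 12 of 29 genes with an ETS match and 10 of 27 without were called lower in stomach. For NRF-1 these were 5 of 11 and 17 of 45. With and without a match, the median log2 difference was -0.19 and -0.15 for ETS, and -0.10 and -0.17 for NRF-1. These differences were not tested.

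The labelled tissues were borne out by their markers. All 8 genes typical of the glandular stomach mucosa were called higher in stomach in C and in OH, and 6 of 8 enterocyte genes were called lower in stomach in C and in OH. No slide carried arrays of more than 1 group, and the OH slides and the C slides had different scan days, so that treatment cannot be told apart from slide or scan day, nor tissue from slide. The reference gave a median raw Cy3 signal between 188 and 195 scanner units on the C slides and between 341 and 399 on the OH slides. A list of 8 striated muscle genes differed within the stomach groups. Its mean log2 ratio was 3.02, -1.31, 2.57 and 3.26 on the C stomach arrays and 1.08, -0.65, -0.87 and 0.31 on the OH stomach arrays. On the 8 middle intestine arrays it lay between -1.39 and -0.98.

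The mitochondrial ribosomal protein genes lay above the common reference on nearly every array. Their median log2 ratio was 0.25, 0.51, 0.24 and 0.17 on C stomach replicates 1 to 4, and 0.00, 0.29, 0.50 and 0.19 on the OH stomach replicates. In C middle intestine it was 0.48, 0.46, 0.61 and 0.29, and in OH middle intestine 0.31, 0.33, 0.39 and 0.30. The ranges of all 4 groups overlapped. The median over all probes was itself above 0 on every array, from 0.08 to 0.21 in stomach and from 0.07 to 0.12 in middle intestine. On OH stomach replicate 1 the members' median lay below that of all probes, 0.08. The number of members with a ratio above 0 was between 34 and 68 of 70 in stomach and between 56 and 66 in middle intestine. The share of all probes with a ratio above 0 was not counted. In stomach the 3 highest medians were those of C replicate 2 and OH replicates 3 and 2, which are the 3 stomach arrays with a striated muscle mean below 0, and they also had the highest medians over all probes, 0.19, 0.21 and 0.16, where the other 5 stomach arrays lay between 0.08 and 0.12. The part of muscle or of this shift in the members' values was not tested. Fewer cells that express a gene and less RNA of it per cell cannot be told apart in whole tissue.

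**Figure D1:**
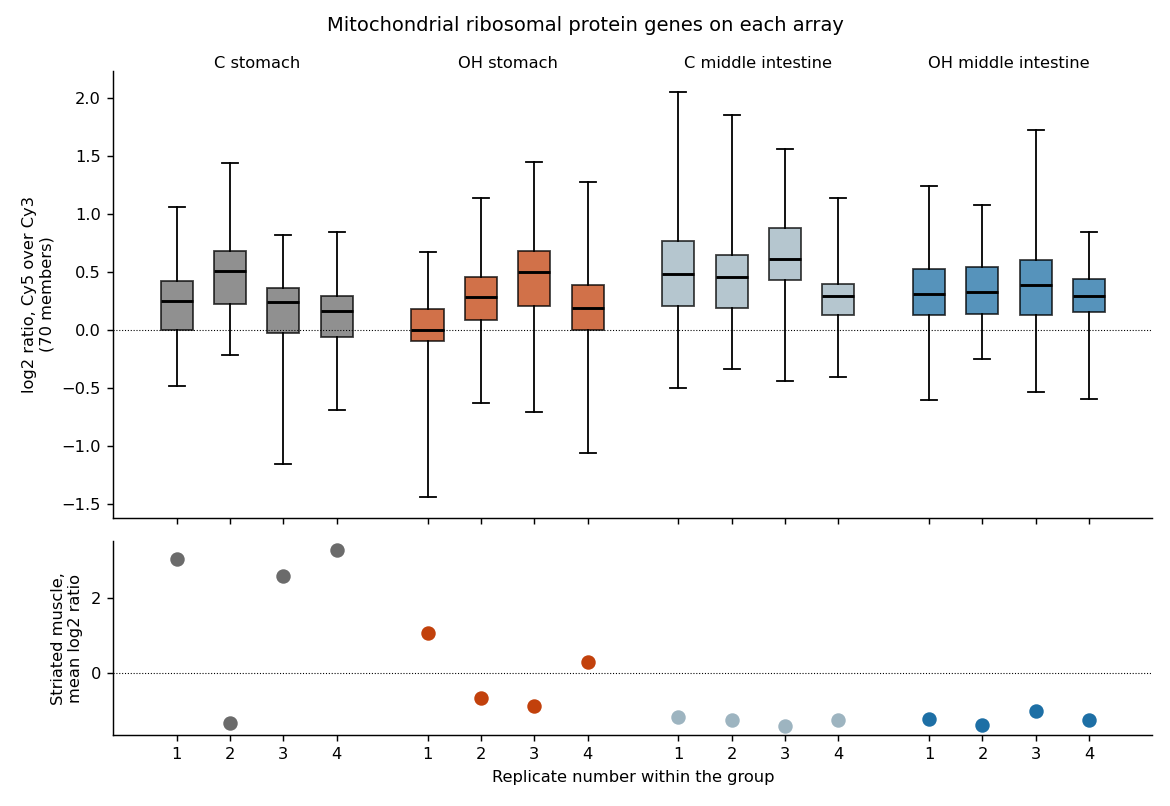
Log2 ratio of Cy5 to Cy3 of the 70 mitochondrial ribosomal protein genes on each of the 16 arrays (upper panel: box from the lower to the upper quartile, black line at the median, whiskers to the lowest and highest gene) and mean log2 ratio of 8 striated muscle genes on the same arrays (lower panel). The medians lie between 0.00 and 0.61, and C stomach replicate 2, low in muscle genes, has the highest median of the stomach arrays, 0.51.

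The comparison of C stomach with C middle intestine asked how far the 2 tissues of pups given saline differ in these genes. Of the 70 genes, 30 were called, 26 lower and 4 higher in stomach. Over all probes kept, 22.3% were called lower and 22.7% higher. The median difference of the members was -0.18 on the log2 scale (-0.01 over all probes), and 52 of 70 were lower in stomach. Without C middle intestine replicate 3 the median was -0.11. The calls came from both name series. Of the 42 Mrpl genes 16 were called lower and 2 higher, and of the 28 Mrps genes 10 were called lower and 2 higher. In the signal of the tissue alone, Cy5, the median difference was -0.20 and 25 genes were called, 22 lower and 3 higher in stomach (23.8% and 19.7% of all probes). In Cy3, which holds the same pool on every array, 13 members were called, 3 lower and 10 higher on the stomach slide (18.4% and 13.8% of all probes), and the part of the reference in the tissue differences was not tested.

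The comparison of OH stomach with OH middle intestine rests on other arrays. There 19 of 70 genes were called, 15 lower and 4 higher in stomach, where 19.1% of all probes were called lower and 19.2% higher. The median difference was -0.10. It was -0.05 without OH stomach replicate 1, where 6 genes were called lower and 7 higher, and -0.19 without OH stomach replicate 3, where 22 were called lower and 2 higher. Of the 30 genes called in C, 18 were called in OH as well, all 18 in the same direction, which is 60% of the C calls and 94.7% of the OH calls (69.3% and 81.5% over all probes). All 30 kept their sign in OH, and 26 of them had a smaller difference there. Of the 9517 probes called in C among all probes, 9342 kept their sign and 6688 had a smaller difference in OH. Genes picked by their call in C can be smaller in other arrays through that choice alone. The gene called in OH and not in C was Mrpl43, with -0.40 in OH (adjusted p = 0.049 in limma) and 0.05 in C (adjusted p = 0.82). The count in C stayed between 20 and 31 when each array was left out, while the count in OH fell to 9 without OH middle intestine replicate 3 and to 11 without OH stomach replicate 2 or replicate 4.

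**Figure D2:**
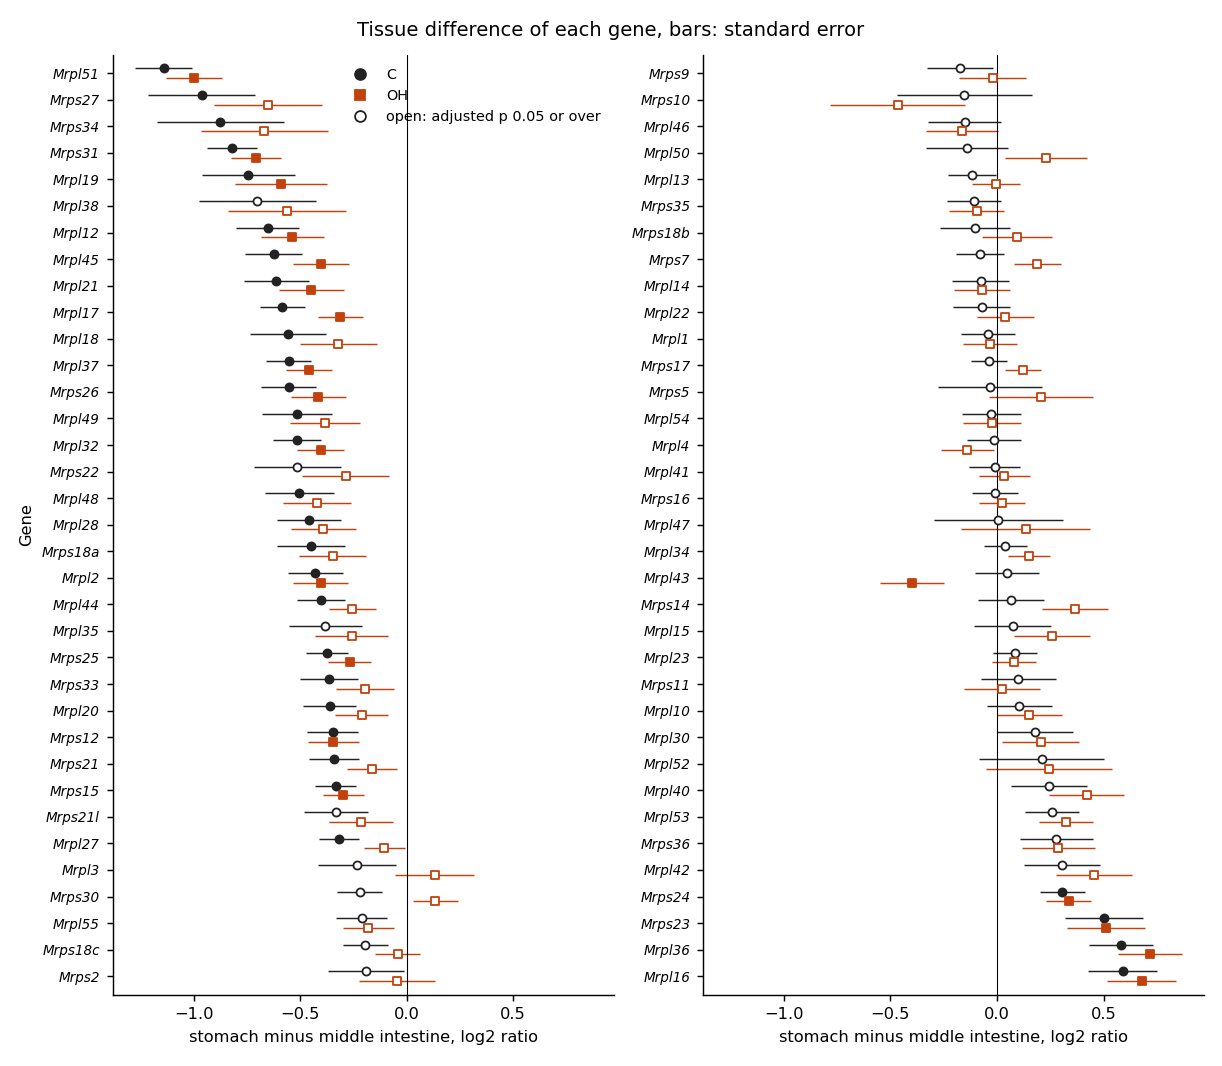
Difference in log2 ratio between stomach and middle intestine for each of the 70 genes, in C (black circles) and in OH (orange squares), with the standard error as bars; filled symbols are genes called at an adjusted p under 0.05. In C 26 genes are called below 0 and 4 above it, and in OH 15 and 4.

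Mrpl51, a protein of the large subunit, had the largest difference between the tissues. Its log2 ratio was -0.41, -0.22, -0.61 and -0.69 on the C stomach arrays and 0.64, 0.73, 0.84 and 0.43 on the C middle intestine arrays. In OH it was -0.50, -0.25, -0.04 and -0.26 in stomach and 0.61, 0.85, 0.82 and 0.66 in middle intestine. All stomach arrays lay below all intestine arrays in C and in OH. The level in stomach was 2.20-fold lower in C (log2 difference -1.14, standard error 0.13, adjusted p = 8.7e-06 in limma) and 2.00-fold lower in OH (adjusted p = 3.4e-05). The probe lies on chromosome 4 of the rn4 build from 161313262 to 161313321.

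Mrps31, of the small subunit, was also clearly apart. Its log2 ratio was -0.03, 0.05, -0.14 and -0.18 in C stomach and 0.77, 0.66, 0.95 and 0.60 in C middle intestine, a 1.76-fold lower level in stomach (adjusted p = 6.1e-05 in limma). In OH it was -0.28, -0.13, 0.19 and -0.28 in stomach and 0.53, 0.66, 0.58 and 0.56 in middle intestine, 1.63-fold lower (adjusted p = 0.00026). Neither treatment group showed an overlap of the tissues. Mrpl12 sits in the stalk of the large subunit, where elongation factors are recruited, and is also known to bind the mitochondrial RNA polymerase. Its log2 ratio was 0.28, 0.57, 0.15 and 0.12 in C stomach and 1.06, 1.09, 0.86 and 0.72 in C middle intestine. The level was 1.57-fold lower in C stomach (adjusted p = 0.0026 in limma) and 1.45-fold lower in OH stomach (adjusted p = 0.010), again with no overlap in either.

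The other 7 of the 10 largest decreases belonged to both subunits. Mrps27, an RNA-binding protein of the small subunit, had a log2 difference of -0.96 in C and -0.65 in OH, and the latter was not called (adjusted p = 0.055 in limma). Mrps34 had -0.87 in C and -0.67 in OH, not called in OH (adjusted p = 0.093), and 1 array of each tissue, C replicate 3, was far below the others, at -1.15 in stomach and -0.18 in middle intestine. Mrpl19 had -0.74 in C and -0.59 in OH, and Mrpl21 had -0.61 and -0.45, all called. Mrpl45, which holds the ribosome to the inner membrane at the exit of the peptide tunnel, had -0.62 in C and -0.40 in OH, both called. Mrpl17 had -0.58 in C (adjusted p = 0.00043 in limma) and -0.31 in OH (adjusted p = 0.029). Its second probe gave -0.47 in C (adjusted p = 0.0053) and -0.24 in OH (adjusted p = 0.13, not called). Mrpl18 had -0.56 in C and -0.32 in OH, and the latter was not called (adjusted p = 0.18). The call of Mrps34 in C was lost without C stomach replicate 3 or C middle intestine replicate 1, 2 or 4, and that of Mrpl18 without C stomach replicate 4 or C middle intestine replicate 2 or 3. In OH the calls of Mrpl19, Mrpl21, Mrpl45 and Mrpl17 were each lost without OH stomach replicate 2 and without OH middle intestine replicate 3, and also without OH stomach replicate 1 for the first 3, OH stomach replicate 4 for Mrpl21 and Mrpl17, OH middle intestine replicate 1 for Mrpl21 and Mrpl17, and OH middle intestine replicate 4 for Mrpl19.

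With 1 probe per gene, the 4 genes called higher in stomach were the same in C and in OH. The second probe of Mrpl40 was also called higher, by 0.61 in C (adjusted p = 0.0058 in limma) and 0.66 in OH (adjusted p = 0.0040). The probe that stands for Mrpl40 had 0.25 and 0.42, neither called. With the mean of all probes of a gene, 5 genes were called higher and 24 lower in C, and 5 higher and 14 lower in OH. Mrpl2 was called lower in stomach, by -0.43 in C and -0.40 in OH. Its second probe gave -0.18 and -0.23, neither called. Mrps21 was called lower in C, by -0.34, and its second probe gave -0.25, not called. In OH the probes of Mrps21 had opposite signs, -0.16 and 0.29, neither called. Mrpl36, a small protein of the large subunit, had log2 ratios of 0.76, 1.15, 0.58 and 0.50 in C stomach and -0.07, 0.17, 0.39 and 0.17 in C middle intestine. Its log2 difference was 0.58 in C (adjusted p = 0.0060 in limma) and 0.72 in OH (adjusted p = 0.0016), with no overlap of the tissues in either. Mrpl16, which has a bacterial counterpart near the peptidyl transferase centre, had 0.62, 0.89, 0.43 and 0.32 in C stomach and 0.01, -0.33, 0.32 and -0.09 in C middle intestine. Its lowest stomach array and its highest intestine array met at 0.32, and its log2 difference was 0.59 in C (adjusted p = 0.0092) and 0.68 in OH (adjusted p = 0.0044). Mrps23 was 1.42-fold higher in stomach in C (adjusted p = 0.037) and in OH (adjusted p = 0.040), and Mrps24 was 1.24-fold higher in C (adjusted p = 0.029) and 1.26-fold higher in OH (adjusted p = 0.020). In C the call of Mrps23 was lost without any 1 of C stomach replicates 1, 2 and 3 or C middle intestine replicates 1, 2 and 4, and that of Mrps24 without C stomach replicate 1 or 2 or C middle intestine replicate 1, 2 or 4. In OH the call of Mrps23 was lost without OH stomach replicate 2, 3 or 4 or OH middle intestine replicate 3 or 4, and that of Mrps24 without OH stomach replicate 3 or OH middle intestine replicate 1. Without C stomach replicate 2 the counts in C were 28 lower and 2 higher.

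**Figure D3:**
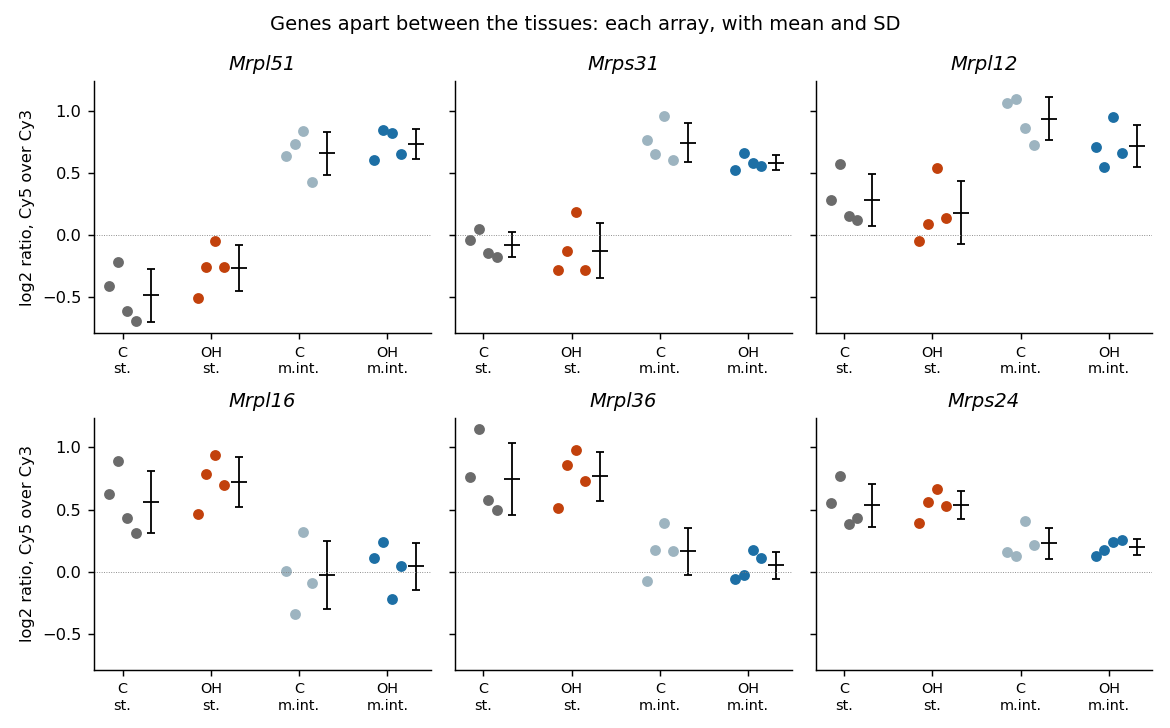
Log2 ratio of Cy5 to Cy3 on each array for 3 genes called lower in stomach (upper row) and 3 called higher in stomach (lower row), with the mean and SD of each group of 4 beside the points (st., stomach; m.int., middle intestine). The stomach arrays of Mrpl51 and Mrps31 all lie below the intestine arrays, and those of Mrpl36 all lie above them.

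The 3 forms of Mrps18 are paralogs that occupy different sites, with Mrps18a in the large subunit and the others in the small one. Only Mrps18a was called in C, lower in stomach by -0.45 on the log2 scale (adjusted p = 0.032 in limma), and the call was lost without C stomach replicate 3 or 4 or C middle intestine replicate 1, 2 or 3. Mrps18b had -0.10 (adjusted p = 0.63) and Mrps18c had -0.19 (adjusted p = 0.15). The difference among the 3 was not tested. Of 7 further genes whose human counterparts are known from inherited defects of oxidative phosphorylation, Mrpl44 was called lower in C stomach (-0.40, adjusted p = 0.0090). Mrps22 had -0.51 (adjusted p = 0.053), Mrpl3 had -0.23, Mrps2 had -0.19, Mrps7 had -0.08 and Mrps16 had -0.01, none called. Mrps34, the seventh, is given above.

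Genes around the mitochondrial ribosome were taken from lists fixed by role, and their counts stand beside 22.3% of all probes called lower and 22.7% called higher in C stomach. Of 7 mitoribosome proteins under other symbols, 1 was called in C, Ptcd3, lower in stomach by -0.65 on the log2 scale (adjusted p = 0.00093 in limma). Of 11 translation factors 4 were called lower in stomach and 1 higher, with Mtfmt, which formylates the initiator methionyl-tRNA, at -0.85, Tufm, the elongation factor that brings tRNAs to the ribosome, at -0.43, and Mrrf, the ribosome recycling factor, at 0.71. Of 16 assembly genes 3 were called lower and 1 higher, the lowest being Gtpbp10, a GTPase of large subunit assembly, at -0.81. Of 10 genes for transcription and upkeep of mitochondrial DNA 4 were called lower, among them Tfam, which packs and activates this DNA, at -0.60, and 1 higher, Polg2, a subunit of its polymerase, at 0.68. Of 9 nuclear regulators of mitochondrial genes 4 were called lower, Nrf1 at -0.78, Pprc1 at -0.69, Esrra at -0.41 and Gabpb1 at -0.32, and 1 higher, Ppargc1b at 0.95. Of 16 mitochondrial aminoacyl-tRNA synthetases 2 were called lower, Ears2 at -1.18 and Yars2 at -0.63. In OH the sign and call were the same for Mtfmt, Tufm, Mrrf, Gtpbp10, Tfam, Polg2, Nrf1, Esrra, Gabpb1, Ppargc1b, Ears2 and Ptcd3.

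The respiratory chain, part of which the mitochondrial ribosome makes, had most of its calls in the other direction. A list of 88 nuclear genes for the respiratory chain and ATP synthase was taken by the beginnings of their names. The name pattern does not match succinate dehydrogenase (Sdh names). It does match Ndufaf names, which belong to assembly factors and not to subunits. In C stomach 32 were called higher and 5 lower (median log2 difference 0.27), where 22.7% and 22.3% of all probes were called. In OH stomach 31 were called higher and 0 lower (median 0.32), where 19.2% and 19.1% of all probes were called. There 2 of the list were lower at an unadjusted p under 0.05 in limma. Of 76 genes for cytosolic ribosomal proteins, 6 were called higher and 13 lower in C stomach (median -0.04). The differences between these lists were not tested. Markers of other cell types moved between the tissues as well. The striated muscle genes had 6 of 8 called higher in C stomach (median log2 difference 3.17) and 2 of 8 in OH stomach (1.18). All 5 forestomach genes were called higher in C stomach, with array means of 0.48 to 2.25 in C stomach and -3.45 to -3.21 in C middle intestine, and 3 of 5 pancreas genes were called higher. Of 3 leukocyte genes 2 were called lower in C stomach, with array means of -1.83 to -1.50 against -0.20 to 0.82. Of 6 smooth muscle genes 1 was called lower, with array means of -2.76 to -1.61 against -1.67 to -0.51. The part of these cell types in the members' differences was not tested.

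The comparison of OH with C in stomach asked whether obestatin changed these genes there. None of the 70 genes was called in limma, nor was any of all probes (0%), and the smallest adjusted p among the members was 0.31. Without adjustment 2 members passed a p of 0.05, both lower in OH, where 10.6% of all probes passed, and the ANOVA with Tukey's HSD of the study's methods called 1, Mrps10 (3.35% of all probes). The median difference was -0.01, with 38 genes lower and 32 higher. For no member did the 4 OH arrays lie all under or all above the 4 C arrays, where 3.51% of all probes lay under and 4.09% above. The median was 0.06 without C stomach replicate 2 and 0.05 without OH stomach replicate 1, so its sign rested on single arrays.

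The member with the lowest p in stomach was Mrps10, a small subunit protein with a bacterial counterpart. Its log2 ratio was -0.49, 0.93, -0.71 and 0.53 on the C arrays and -1.44, -0.63, -0.71 and -1.06 on the OH arrays. The groups overlapped, since C replicate 3 lay among the OH arrays, C replicate 1 just above them and C replicates 2 and 4 far above. The log2 difference was -1.03 (standard error 0.32, adjusted p = 0.31 in limma). Mrpl43 had 0.17, 0.80, 0.33 and 0.68 in C and -0.07, 0.29, 0.27 and -0.13 in OH, a difference of -0.41 (adjusted p = 0.39). The 4 next by p had log2 differences of 0.16 (Mrps17), -0.23 (Mrpl14), 0.26 (Mrpl10) and 0.22 (Mrpl51), and their smallest adjusted p was 0.53. For Mrpl51 the ratio and the tissue signal differed. Its difference was -0.02 in Cy5 alone and -0.23 in Cy3, which holds the same pool on every array. Without scaling between arrays these were 0.36 and 0.14. Mrpl10 was alike, with 0.07 in Cy5 and -0.18 in Cy3, and with 0.45 and 0.19 without scaling.

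The comparison of OH with C in middle intestine asked the same of the intestine. None of the 70 genes was called, where 0.368% of all probes were, and the smallest adjusted p was 0.12. The members lay to one side: 57 of 70 were lower in OH, with a median difference of -0.11, where the median of all probes was 0.00. Of the 42 Mrpl genes 34 were lower and of the 28 Mrps genes 23 were lower. Without adjustment 5 members passed, all lower, where 10.5% of all probes passed, and ANOVA with Tukey's HSD called 3, Mrps7, Mrps30 and Mrpl17 (4.42% of all probes). For 4 members, Mrps7, Mrps30, Mrps10 and Mrpl44, the OH arrays were below every C array, where 2.13% of all probes did so, and for 0 members they lay above, where 3.72% did so. The median stayed below 0 when each array was left out, but it fell in size to -0.05, with 45 of 70 lower, without C middle intestine replicate 3, and was -0.17 without C middle intestine replicate 4. The members' median had an SD between arrays of 0.13 in C and 0.04 in OH, over 4 arrays each. The mean of the enterocyte genes lay between -0.56 and 0.17 on the C arrays and between -0.82 and 1.08 on the OH arrays, and that of the leukocyte genes between -0.20 and 0.82 and between -0.24 and 0.90. Smooth muscle lay between -1.67 and -0.51 in C and between -1.27 and -0.42 in OH, the glandular stomach genes between -4.11 and -3.72 and between -3.79 and -3.28, and striated muscle between -1.39 and -0.98 in both. None of these lists had a called gene here in limma, where 3 of the 8 glandular stomach genes, 1 of the 8 enterocyte genes and 0 of the others passed without adjustment, and their part in the members' differences was not tested.

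**Figure D4:**
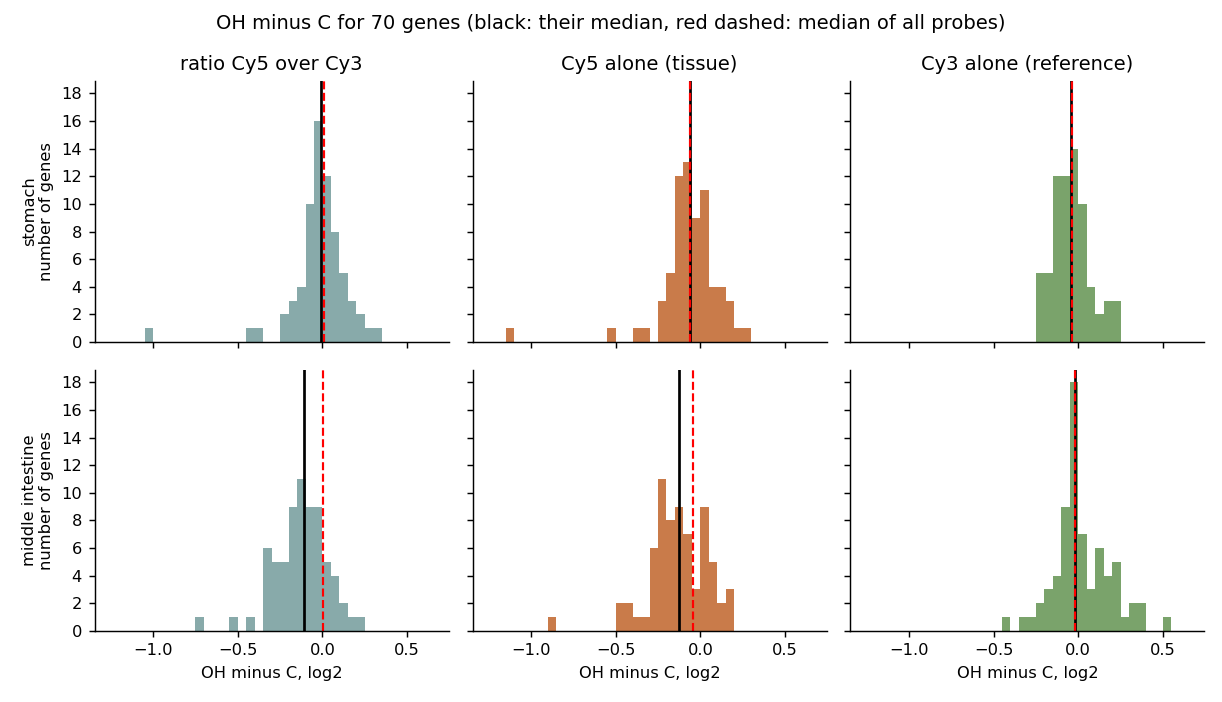
Difference between OH and C on the log2 scale for the 70 genes, as the ratio (left), the Cy5 signal of the tissue (middle) and the reference in Cy3 (right), in stomach (upper row) and middle intestine (lower row); black lines are the medians of the genes and red dashed lines the medians of all probes. In middle intestine the ratio has a median of -0.11 for the genes and 0.00 for all probes.

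Mrps7, whose bacterial counterpart begins the assembly of the small subunit head, had the lowest p in middle intestine. Its log2 ratio was 0.80, 0.54, 0.71 and 0.35 in C and 0.14, 0.17, 0.25 and 0.12 in OH, a difference of -0.43 (standard error 0.11, adjusted p = 0.12 in limma). The OH arrays lay close together and below all C arrays. In Cy5 alone, however, its log2 level above the array median was 3.78, 3.47, 3.84 and 3.24 in C and 3.45, 3.49, 3.60 and 3.45 in OH, and the groups overlapped. In Cy3 alone it was 3.02, 2.99, 3.18 and 2.89 in C and 3.38, 3.39, 3.42 and 3.38 in OH, with all OH arrays above all C arrays. The difference was -0.08 in Cy5 (adjusted p = 0.91) and 0.37 in Cy3 (adjusted p = 8.6e-05). Without scaling between arrays the Cy5 difference turned to 0.04. Under the other scalings of Cy3 it lay between 0.34 and 0.51.

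Mrps30, a protein that despite its name sits in the large subunit, had log2 ratios of 0.59, 0.36, 0.59 and 0.25 in C and -0.01, 0.13, 0.17 and 0.16 in OH, a difference of -0.34 (adjusted p = 0.20 in limma). Its difference was -0.16 in Cy5 and 0.20 in Cy3, of which the latter was called (adjusted p = 0.0053). Mrpl40 had a difference of -0.35 (adjusted p = 0.54), with -0.09 in Cy5 and 0.28 in Cy3, and its second probe gave 0.03. For these 3 genes the Cy3 signal of the reference moved more than the Cy5 signal of the tissue.

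For the other 3 genes of low p the Cy5 difference was larger than the Cy3 difference, and none was called in Cy5. Mrps10 had log2 ratios of -0.01, 0.60, -0.16 and 0.45 in C and -0.60, -0.25, -0.53 and -0.59 in OH, with no overlap, a difference of -0.71 (standard error 0.32, adjusted p = 0.45 in limma). Its difference was -0.89 in Cy5 (adjusted p = 0.20) and -0.15 in Cy3 (adjusted p = 0.0097, called). The Cy5 difference was -0.53 with normexp background correction, and it was -0.76 without scaling between arrays. Mrpl17 had 0.62, 0.57, 0.29 and 0.33 in C and 0.20, -0.04, 0.33 and 0.09 in OH, which overlapped. Its difference was -0.31 (adjusted p = 0.26), with -0.30 in Cy5 (-0.17 without scaling, adjusted p = 0.26 with it) and 0.04 in Cy3, and its second probe gave -0.06. Mrpl44, an RNase III-like protein of the large subunit, had 0.62, 0.40, 0.74 and 0.34 in C and 0.28, 0.33, 0.32 and 0.21 in OH, a difference of -0.24 (adjusted p = 0.48), with -0.28 in Cy5 (-0.15 without scaling, adjusted p = 0.33 with it) and -0.02 in Cy3.

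**Figure D5:**
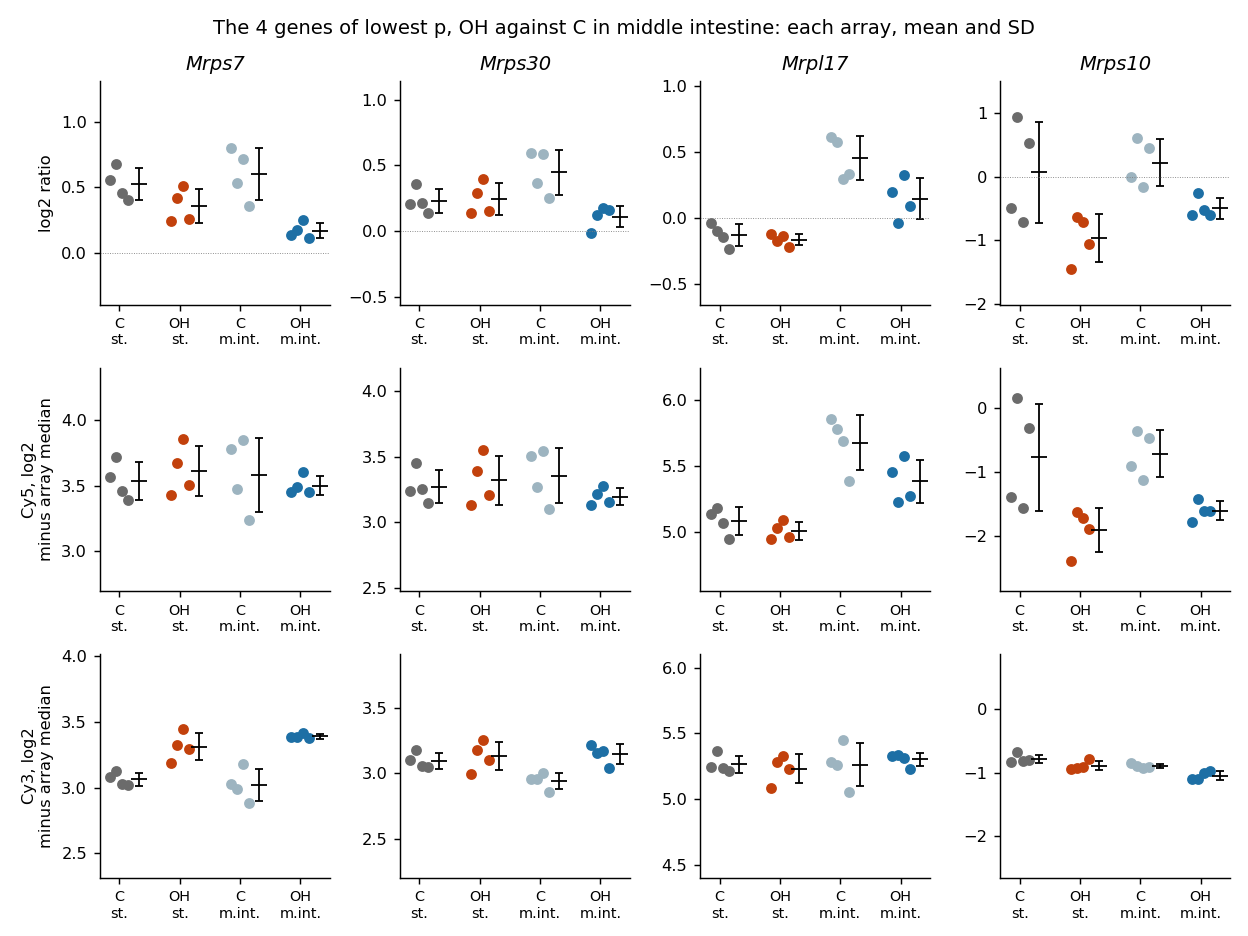
The 4 genes with the lowest p for OH against C in middle intestine on each array, as the log2 ratio (top), the log2 Cy5 signal minus the array's median over the probes kept (middle) and the same for Cy3 (bottom), with the mean and SD of each group of 4 (st., stomach; m.int., middle intestine). In Cy3 the OH middle intestine points of Mrps7 all lie above the C points, and in Cy5 they overlap. The axis of Mrps10 spans a wider range than the others.

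No member was called in the tissue signal alone. In Cy5, 0 of 70 were called in stomach (0.156% of all probes) and 0 in middle intestine (2.61%). The median Cy5 difference in middle intestine was -0.13, where that of all probes was -0.04. It was 0.00 without scaling between arrays, where that of all probes was 0.09. This scaling shifts all probes of an array alike, so it cannot alter the gap between the members and all probes. The Cy3 signal of the common reference differed between the OH and C slides for 14 of 70 members on the stomach slides, 6 higher and 8 lower in OH (41% of all probes), and for 26 of 70 on the middle intestine slides, 17 higher and 9 lower (58.6%). The split depended on the scaling: without it 56 were higher and 0 lower on the stomach slides and 12 higher and 1 lower on the middle intestine slides, with the 75th percentile 8 and 17, and 19 and 19, and with normexp 35 and 8, and 49 and 8. Without scaling the median Cy3 difference of all probes was itself 0.33 on the stomach slides and 0.08 on the middle intestine slides (members 0.33 and 0.09). The shares of all probes called under these other scalings were not counted. The largest Cy3 difference among the members called there was that of Mrpl3, 0.54, with a ratio difference of -0.33 and a Cy5 difference of 0.19. The part of the reference in the ratio differences was not tested.

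The difference between the tissues in the response to OH was tested as an interaction. None of the 70 genes was called in limma, nor was any of all probes (0%), and 1 member passed without adjustment, where 5.85% of all probes did. That gene was Mrps30, with a difference of 0.35 between its response in stomach and in middle intestine (adjusted p = 0.84). The sign was positive, a higher value in stomach, for 64 of 70 members, with a median of 0.12. Without OH stomach replicate 3 it was positive for 43 of 70, with a median of 0.04, and without C middle intestine replicate 3 for 49 of 70, with a median of 0.05. The median was 0.07 without C stomach replicate 4 and between 0.18 and 0.19 without C stomach replicate 2, OH stomach replicate 1 or C middle intestine replicate 4. Mrpl43 had the lowest value, -0.44 (adjusted p = 0.84). With each array centred on its median over the probes kept, the sign was positive for 60 of 70 members, with a median of 0.11. The share of positive signs over all probes is not given here. All members were measured on the same arrays, so the counts of signs here and above are not counts of independent results.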

How the data were processed

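The files deposited by the authors are scanner tables from Feature Extraction (version 10.10.1.1 by their headers and 10.7.3.1 by the labels), with the processed intensity of each spot in Cy5 and Cy3 after background subtraction and dye normalization. A series table deposited by the authors gives the same ratios as log10 values. The log2 ratio of the processed intensities was taken for 58717 spots that were no controls, spots marked as outliers were left out, and spots of a probe were averaged. Of 30367 probes, 21174 were kept: at least 50% of the spots of a probe were brighter than background, by the scanner's flag in Cy5, on all 4 arrays of a group, with at least 3 values per group. A linear model with a mean for each group was fitted to the 16 arrays in limma 3.58.1 (R 4.3.3) and p-values were adjusted over the probes kept. The methods' ANOVA with Tukey's HSD was run as an alternative. Each dye alone was tested on log2 signals minus the array median. The script was checked on simulated data. The p-values measure the spread between the arrays of a group, taken as independent, and do not cover differences between the slides of the groups. The number of arrays limits the precision. The methods assign whole litters to treatments, and the litter of each array is not given in the sources used here.

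The members and lists were chosen with earlier results of these data known. The genes named are, between the tissues, the called members with the 10 largest differences in each direction in C; between OH and C, the 6 with the lowest p; and 11 genes picked for their role (the 3 Mrps18 forms, Mrpl12, and 7 with human counterparts known from inherited defects). Between OH and C, limma called none of these 11 (Mrps7 passed the ANOVA with Tukey's HSD in the intestine), and their log2 differences ranged from -0.16 to 0.32 in stomach and from -0.43 to 0.11 in the intestine. Mrps36 of the array is Kgd4 in RefSeq. Probe coordinates are those of the array design (rn4), and promoter windows are those of GRCr8.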

Additional observations from a re-analysis of the deposited data

Results flagged for a closer look

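In 128 groups of 4 arrays, those of the 30 named genes, of the members' median and of the striated muscle mean, 3 held a single array set apart: its distance to the next array, as a share of the whole spread of the 4, exceeded the 95% limit of Dixon's test. Chance alone gives about 1 in 20, or 6.4 groups. Mrps16 in C middle intestine had a share of 0.914, with replicate 3 at 0.21 and the others at 0.01 to 0.03. Mrpl45 in C middle intestine had 0.875, with replicate 4 at 0.43 and the others at 0.67 to 0.70. The mean of the striated muscle genes in C stomach had 0.848, with replicate 2 at -1.31 and the others at 2.57 to 3.26.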

How the results depend on the processing

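The count of members called in C stomach against C middle intestine stayed between 20 and 37 under all alternatives. That of OH stomach against OH middle intestine was 12 with only the 8 arrays compared, 30 without adjustment and 30 at an adjusted p under 0.1, and 9 to 24 with an array left out. For OH against C the count was 1 in stomach and 3 in middle intestine by ANOVA and Tukey's HSD, and 2 and 5 without adjustment; the interaction gave 1 without adjustment. In Cy5 alone, stomach gave 3 without scaling. In Cy3 alone, stomach gave 56 without scaling, 25 with the 75th percentile, 43 with normexp and 9 to 18 with an array left out (9 without C stomach replicate 2), and middle intestine gave 13 without scaling and 57 with normexp. The causes of these changes were not tested, and the shares of all probes under these settings of a single dye were not counted. Mrps16 between the tissues in C turned from -0.01 to 0.011 with normexp and loess and to 0.023 with the mean of both probes, and lay between -0.091 and 0.049 with an array left out, and Mrps18b lay between -0.22 and 0.020. With the replicate number as a block there were 31, 22, 0 and 0 members for the tissues in C, the tissues in OH, OH against C in stomach and in middle intestine, and 0 for the interaction. This block gives C and OH arrays of the same number, which are different rats, a shared effect. It therefore does not stand for the rat, and pairing within a rat was not tested. Same-numbered stomach and intestine arrays could share a rat. Their correlations for numbers 1 to 4 were 0.14, 0.17, 0.06 and 0.25 in C, and -0.12, 0.20, 0.02 and 0.32 in OH. Over all pairs of groups, C with OH included, the median was 0.11 for the same number and -0.04 for other numbers. Not every array correlated best with its own number, and the labels do not name the rat. The arrays were therefore not taken as paired, and any sharing of rats was left out of the tests between tissues.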
